A study of Mus musculus with 12 samples.

Results

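Complement components and receptors were followed as 9 genes, named by their symbols and found by Ensembl identifier in both deposited count tables. They are C1qa (ENSMUSG00000036887), C1qb (ENSMUSG00000036905), C1qc (ENSMUSG00000036896), C4b (ENSMUSG00000073418), C3 (ENSMUSG00000024164), Cfb (ENSMUSG00000090231), Serping1 (ENSMUSG00000023224), C3ar1 (ENSMUSG00000040552) and C5ar1 (ENSMUSG00000049130). All 9 were listed among 35697 identifiers of one table and 55637 of the other.

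Complement is a cascade of plasma and tissue proteins that tags targets for uptake and recruits phagocytes. In the classical route C1q binds a target, and its proteases cut C4 and C2 to form an enzyme that cuts C3. C3 fragments coat the target, factor B amplifies the deposit in the alternative route, the inhibitor encoded by Serping1 blocks the C1 proteases, and the small fragments C3a and C5a act on the receptors C3ar1 and C5ar1. In brain, microglia are the main known source of C1q, reactive astrocytes are known to make C3 and C4, and C1q and C3 mark synapses for removal by microglia.

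All animals were adult male wild-type C57BL/6J mice. Controlled cortical impact (CCI) strikes the exposed cortex with a piston to give a traumatic brain injury (TBI), and sham mice had the same surgery without the strike. A batch dated 2018 held 3 sham mice and 3 TBI mice taken 7 days after injury, and a batch dated 2022 held 3 injured mice and 3 injured mice given zileuton, an inhibitor of 5-lipoxygenase, dissolved in corn oil and injected intraperitoneally, 10 mg for each kg of body weight a day. The labels call the 2022 comparison mice only injured, and a vehicle is not named there, whereas the study describes its RNA-seq comparison group as vehicle-treated. The source labels of the zileuton mice give 7, 8 and 9 days after injury, whereas their library names give 7. The 2022 columns could not be tied to single labels, so these mice are called A, B and C within each group, and their letters pair nobody across groups. RNA came from tissue around the contusion, a mixture of cell types, and in such bulk samples more cells of a type and more RNA per cell cannot be told apart. The labels name each library for a mouse but give no litter or cage.

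Library totals spanned 42929862 to 48684674 counts for the mice of 2018, and those of 2022 spanned 27845562 to 35453257. CPM is counts scaled with edgeR's TMM factors to 1e+06 per library. Brain markers were present throughout: 6 neuronal genes summed to 6430 to 7050 CPM in sham and 4030 to 5040 CPM in TBI libraries, and 7 astrocyte genes to 3720 to 4160 CPM and 7260 to 7600 CPM. Genes marking choroid plexus, a tissue of the ventricles, summed to 1070 CPM in sham 1 but 18.4 and 54.9 CPM in the other sham mice, and to 1150 to 1330 CPM in TBI mice, and 0 of 5 passed the adjusted threshold. The batches were counted apart and were not tested against each other.

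Promoter sequence was held by the RefSeq table (GRCm38.p6) for 5 of the 9 genes, C1qb, C1qc, C3, C3ar1 and C5ar1. The 3 stretches printed hold a match to a searched motif and belong to genes that rose after TBI. All are read 5′ to 3′ on the minus strand, bases that lie in an annotated transcript are left out, and capitals mark the match. C1qb and C1qc, neighbours on chromosome 4, hold GAGGAA, the letters known for the myeloid factor PU.1, at position -30 and, as its reverse complement TTCCTC, at position -193 from the RefSeq start. C3ar1 holds a match to the NF-κB (kB) motif, read on the opposite strand, at position -14.
C1qb, chr4:136886201-136886450, minus strand: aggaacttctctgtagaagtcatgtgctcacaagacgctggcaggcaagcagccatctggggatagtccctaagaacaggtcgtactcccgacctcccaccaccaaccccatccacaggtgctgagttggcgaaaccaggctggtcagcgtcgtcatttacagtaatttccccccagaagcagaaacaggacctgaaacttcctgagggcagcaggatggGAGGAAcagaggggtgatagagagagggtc
C1qc, chr4:136893066-136893164, minus strand: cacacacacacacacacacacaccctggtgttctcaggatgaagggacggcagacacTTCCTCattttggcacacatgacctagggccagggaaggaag
C3ar1, chr6:122856162-122856407, minus strand: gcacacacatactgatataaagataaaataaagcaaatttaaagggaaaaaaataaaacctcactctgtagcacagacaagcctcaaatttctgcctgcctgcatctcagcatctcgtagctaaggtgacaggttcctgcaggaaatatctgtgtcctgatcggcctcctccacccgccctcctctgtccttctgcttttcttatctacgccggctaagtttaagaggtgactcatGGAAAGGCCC
On both strands, GAGGAA was found in 23.3% and the kB motif in 1.41% of 32851 promoter windows of 250 bases, against 2 and 1 of the 5 windows. The interferon-stimulated response element (2.98% of all windows) and the STAT element TTCNNNGAA (7.02%) were found in 0 of the 5. No motif overlapped another in these stretches, and the matches are letters in a window, not measured binding.

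The comparison of TBI with sham asked how the brain transcriptome stood 7 days after impact. Of the 9 genes, 8 passed edgeR's expression filter, and 8 rose after TBI at an adjusted p under 0.05. Of all 19536 genes tested, 28% passed this threshold in either direction and 16.8% passed it as higher. The 8 genes rose between 4.85-fold (Serping1) and 53.1-fold (C3), all 8 stayed called without sham 1 or any other single mouse, and their TBI and sham libraries did not overlap, which held with TBI higher in 24.6% of all genes tested. The median log2 fold change was 3.62 for the 8 genes and 0.02 over all genes. Adjusted p-values here come from edgeR's quasi-likelihood test with Benjamini-Hochberg adjustment over all genes tested.

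**Figure D1:**
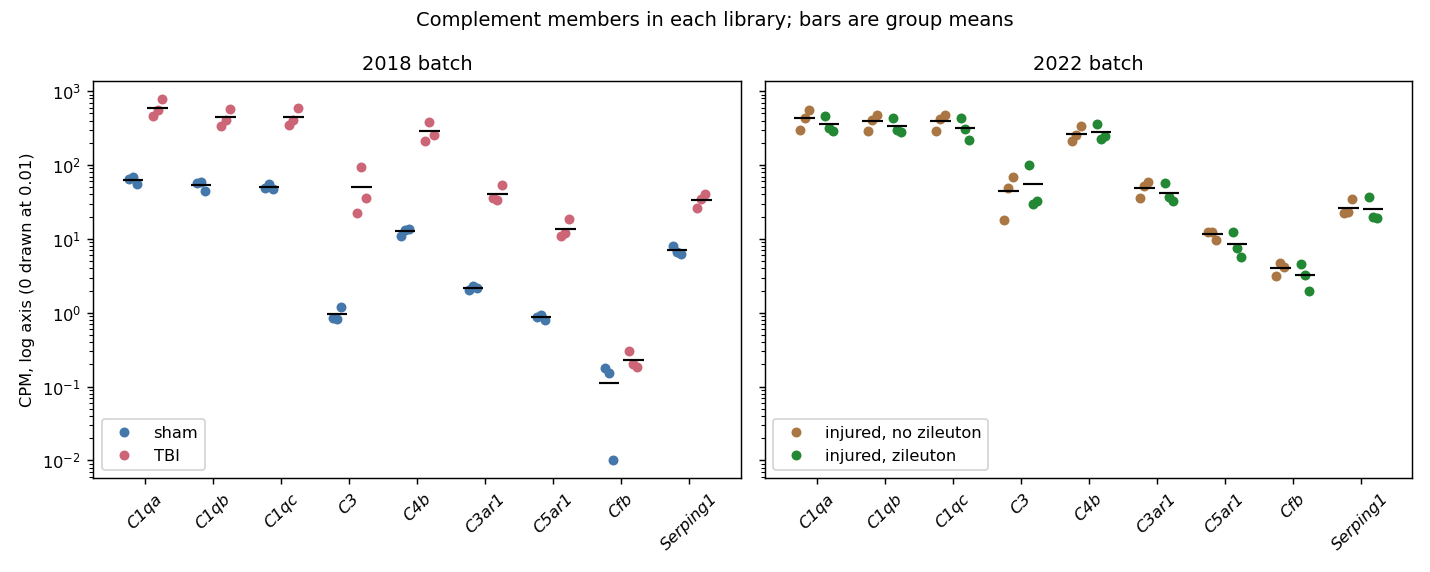
CPM of the 9 complement genes (log axis, a CPM of 0 drawn at 0.01) in each library of the 2018 batch (left, sham and TBI) and the 2022 batch (right, injured with and without zileuton). Points are mice, bars are means of 3, and every TBI mouse lies above every sham mouse, for Cfb narrowly and at 0 to 15 counts, while the 2022 groups overlap in all 9.

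The subunits of C1q, the protein that opens the classical route by binding its target, were the most abundant of the 9 genes before and after injury. C1qa stood at 64.5, 69.3 and 55.4 CPM in sham mice 1 to 3 and at 459, 561 and 783 CPM in TBI mice 1 to 3. Each TBI mouse was above each sham mouse, with TBI 3 highest. This gave a log2 fold change of 3.25 (SE 0.194, 95% interval 2.81 to 3.69, adjusted p = 1.49e-05 from edgeR), a 9.53-fold rise from 63.0 ± 7.08 to 601 ± 166 CPM (SD, n = 3 each).

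C1qb, the B chain of the same protein, stood at 57.8, 59.2 and 45 CPM in sham and 343, 406 and 576 CPM in TBI mice, a log2 fold change of 3.03 (SE 0.199, adjusted p = 1.86e-05, edgeR). C1qc, the C chain, stood at 48.9, 55.4 and 47.5 CPM in sham and 344, 412 and 593 CPM in TBI mice, a log2 fold change of 3.15 (SE 0.192, adjusted p = 1.67e-05, edgeR). The chains are built into one protein, and the TBI mice took the same order in all 3 genes, TBI 1 lowest and TBI 3 highest. Across the 3 genes the fold changes lay between 8.18 and 9.53, with 95% intervals that overlapped.

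C4b encodes the fourth component, which the C1 proteases cut. Its level was 11.0, 13.3 and 13.8 CPM in sham mice and 214, 387 and 256 CPM in TBI mice, here with TBI 2 highest. Its log2 fold change was 4.49 (SE 0.228, 95% interval 3.97 to 5.01, adjusted p = 7.52e-06, edgeR), a 22.5-fold rise. C4b has a close copy, C4a, and reads shared by the copies could have been assigned to either gene or left out, so both levels are uncertain. C4a was named for this reason after its values were seen. It had 38, 73 and 58 counts in sham and 52, 93 and 67 in TBI mice, a log2 fold change of 0.31 (SE 0.338) that did not pass the test (adjusted p = 0.542, edgeR). Within a library, the ratio of C4a to C4b per length was 0.0706, 0.109 and 0.0813 in sham and 0.00454, 0.00453 and 0.00558 in TBI mice.

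C3, the component on which all routes meet, had the largest fold change of the 8 tested genes and the widest spread. The sham mice gave 38, 38 and 56 counts, and the TBI mice gave 1096, 4570 and 1530. In CPM these were 0.843, 0.821 and 1.18 against 22.3, 93.8 and 35.5. All TBI mice were far above sham, and TBI 2 was 4.21 times as high as TBI 1, where C1qa spanned 1.71 times from lowest to highest. The log2 fold change was 5.73 (SE 0.576, 95% interval 4.42 to 7.04, adjusted p = 0.000163, edgeR), which ranked 80 among all genes tested. Without TBI 2 the log2 fold change was 4.92. The call was lost with a two-sided equal-variance two-sample test on FPKM, adjusted over all genes (adjusted p = 0.203), and limma on log2(FPKM + 1) gave a log2 difference of 3.00 at an adjusted p of 0.00282.

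Cfb encodes factor B, the protease part of the alternative route's C3 enzyme. The sham mice gave 8, 7 and 0 counts and the TBI mice 15, 10 and 8, too few for edgeR's filter. Without that filter the log2 fold change was 1.05 (SE 0.901, adjusted p = 0.49, edgeR), which missed the threshold, although the lowest TBI mouse (0.186 CPM) was above the highest sham mouse (0.178 CPM). In the annotation used here (GENCODE M21, GRCm38) a readthrough gene on the same strand, Gm20547, covers 79.5% of Cfb's exon bases. Reads in that overlap can be dropped as ambiguous, and Gm20547 has no entry in the 2018 table, so the Cfb counts of 2018 are uncertain. The limit that a count of 0 allows in sham 3 was taken as 3 counts, or 6 where both reads of a pair were counted, and it covers counting error only.

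Serping1, the inhibitor of the C1 proteases, showed the smallest rise of the 8 tested genes. It stood at 7.95, 6.72 and 6.31 CPM in sham and 26.5, 34.9 and 40.4 CPM in TBI mice, without overlap. Its log2 fold change was 2.28 (SE 0.169, 95% interval 1.90 to 2.66, adjusted p = 3.27e-05, edgeR). That interval ended below the lower ends for C1qa (2.81), C1qc (2.72), C4b (3.97), C3 (4.42), C3ar1 (3.78) and C5ar1 (3.41). It overlapped the interval of C1qb (2.58 to 3.48), and the differences between genes were not themselves tested.

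The receptors rose from low sham levels. C3ar1, the receptor for C3a, stood at 2.02, 2.27 and 2.19 CPM in sham and 35.6, 33.3 and 53.3 CPM in TBI mice, an 18.8-fold rise (log2 fold change 4.24, SE 0.202, adjusted p = 6.82e-06, edgeR). C5ar1, the receptor for C5a, stood at 0.888, 0.930 and 0.800 CPM in sham (40, 43 and 38 counts) and 10.8, 12 and 18.7 CPM in TBI mice, a 15.8-fold rise (log2 fold change 3.98, SE 0.25, adjusted p = 1.73e-05, edgeR). TBI 3 was highest for both receptors, as it was for C1q and Serping1. On log2(FPKM + 1) the differences were smaller, 2.81 for C3ar1 and 2.25 for C5ar1, since the added 1 exceeds their sham FPKM.

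**Figure D2:**
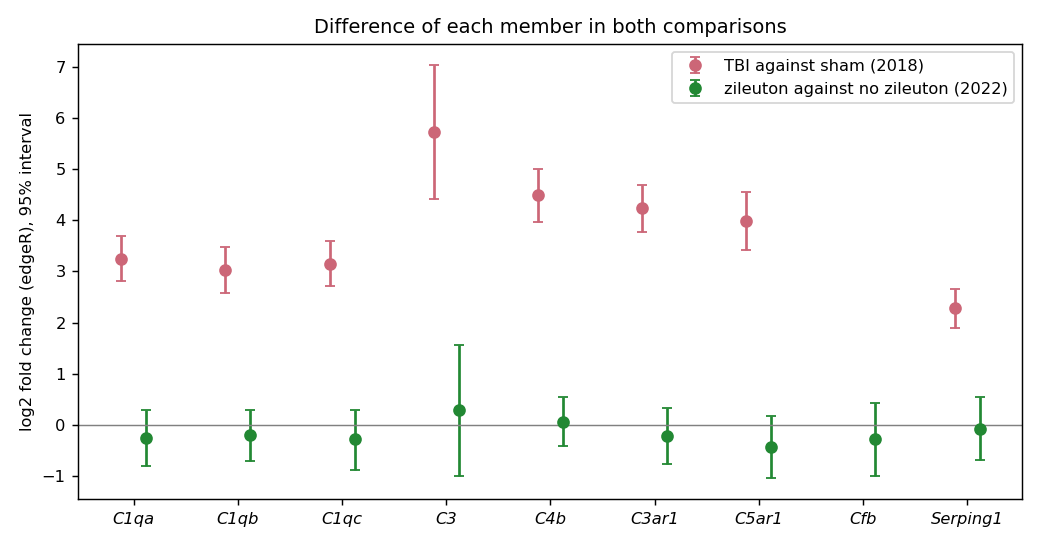
Log2 fold change (edgeR) of each complement gene with its 95% interval, for TBI against sham (2018 batch, 8 genes, Cfb not tested) and for zileuton against no zileuton (2022 batch, 9 genes). The TBI intervals all lie above 0, from 1.90 upward, and the zileuton intervals all include 0.

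Markers of several cell types moved with these genes. The summed level of 8 homeostatic microglia genes was 230 to 268 CPM in sham and 645 to 947 CPM in TBI mice, a 3.10-fold difference, and all 8 rose. The summed level of 8 monocyte and macrophage genes went from 21.4 to 24.5 CPM up to 597 to 1320 CPM, a 38.8-fold difference. Of the 8 genes 7 rose, and in TBI mice Lyz2 made up most of the sum (mean 9.53 CPM in sham, 829 CPM in TBI). Ly6c2, Plac8 and Arg1, at sham means of 0.0724, 0.058 and 0.0872 CPM, passed edgeR's filter only with their TBI counts, which favoured a rise. Neutrophil genes summed to 0.519 to 1.33 CPM in sham, with Ly6g and Cxcr2 at 0, and to 16.1 to 61.4 CPM in TBI mice. Of the 7 genes 4 were tested, and all 4 rose. Cxcr2 and Retnlg, at means of 0 and 0.0717 CPM in sham and 2.1 and 0.676 CPM in TBI mice, also passed only with their TBI counts. Most of the TBI sum was S100a8 and S100a9, at means of 13.8 and 18 CPM. Ly6g, Elane and Mpo, at means of 0.0601, 0.0292 and 0.111 CPM in TBI mice, were too low to be tested. Of the 7 astrocyte genes 6 rose, and the summed level differed 1.87-fold. Mean sums of fibroblast and meninges genes (3.44-fold, 4 of 5 rising), oligodendrocyte genes (1.57-fold, 4 of 6) and endothelial genes (1.56-fold, 3 of 5) were also higher in TBI mice. The endothelial sums overlapped, at 60.6 to 84.9 CPM in sham and 81.5 to 137 CPM in TBI mice. TBI 3, highest for C1q and both receptors, was also highest for microglia (947 CPM), monocyte (1320 CPM), neutrophil (61.4 CPM) and fibroblast genes (547 CPM). TBI 2, highest for C3 and C4b, was highest for oligodendrocyte (11100 CPM), endothelial (137 CPM), choroid plexus (1330 CPM) and T cell genes (28.6 CPM). Its astrocyte sum of 7600 CPM was close to the 7260 and 7300 CPM of the others. The T cell sum was mostly Cd4, whose mean was 12.5 CPM in sham and 12.3 CPM in TBI mice. In sham 3 the T cell sum was 21.3 CPM. The part of these cell types in the complement result was not tested.

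Per length, in FPKM, the order of the genes changed with injury. In sham mice mean FPKM fell from C1qa (59.5), C1qb (48.7) and C1qc (25.7) to Serping1 (2.95), C4b (2.19), C3ar1 (0.492), C5ar1 (0.333), C3 (0.181) and Cfb (0.038). Only C1qa and C1qb overlapped among neighbours in that order. In TBI mice C1qa (587), C1qb (412) and C1qc (237) were followed by C4b (51.2), Serping1 (14.8), C3 (10.1), C3ar1 (9.61), C5ar1 (5.47) and Cfb (0.0835). C4b had passed Serping1, and C3 had passed both receptors by its mean. In TBI mice 1 to 3, C3 stood at 4.38, 18.9 and 6.93 FPKM. C3ar1 stood at 8.37, 8.03 and 12.4 FPKM, so that C3 was above it only in TBI 2. C5ar1, at 4.26, 4.86 and 7.29 FPKM, was above C3 in TBI 3. Serping1, C3 and C3ar1 could not be separated by their spread, and neither could C3 and C5ar1. The coefficient of variation between TBI mice was 77.1% for C3 and 20.5% to 33.5% for the other genes tested.

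Ratios within a library, which need no scaling between libraries, showed unequal rises. The ratio of C3 to C1qa FPKM was 0.00265, 0.0024 and 0.0043 in sham and 0.00982, 0.0338 and 0.00918 in TBI mice, 4.81-fold higher. The ratio of C4b to C1qa was 0.0311, 0.0351 and 0.0455 in sham and 0.0852, 0.126 and 0.0596 in TBI mice, 2.35-fold higher, and that of C3ar1 to C1qa was 1.98-fold higher. C3, C4b and C3ar1 thus stood higher relative to C1qa in every TBI mouse than in every sham mouse. The ratio of C5ar1 to C3ar1 was lower, at 0.509 to 0.606 against 0.612 to 0.736. Each of these 4 differences had p = 0.1 in a two-sided exact permutation test, the smallest p that 3 mice against 3 can give, so none could reach 0.05. Among the C1q chains, C1qb to C1qa was 0.692 to 0.714 in TBI and 0.776 to 0.857 in sham mice.

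**Figure D3:**
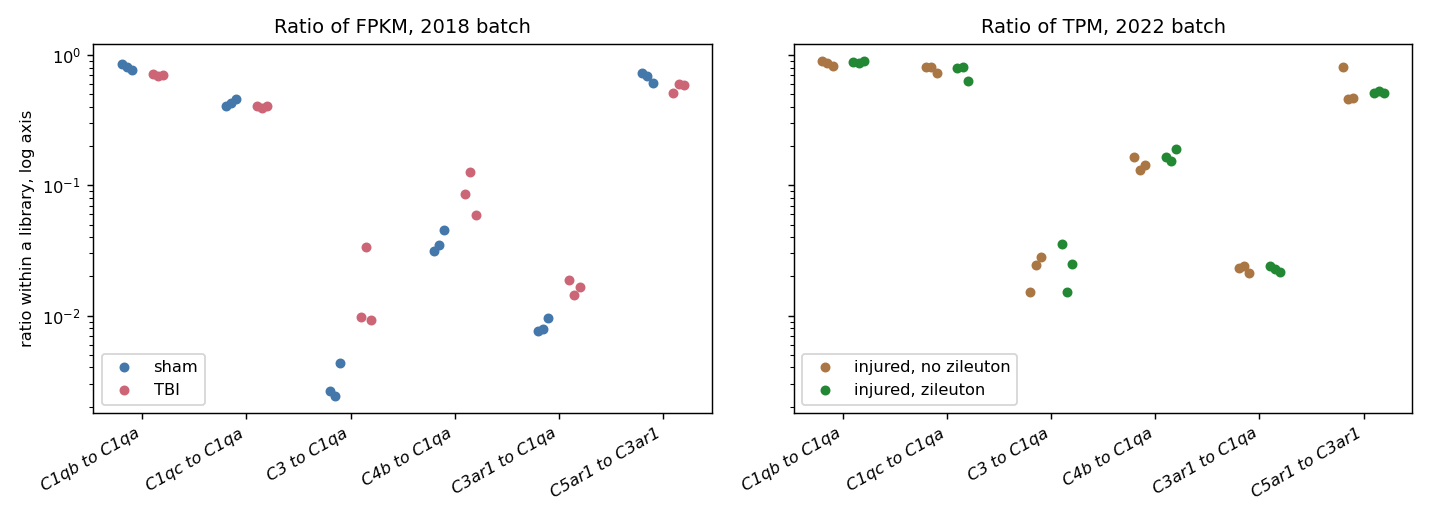
Ratios between complement genes within each library (log axis), as ratios of FPKM in the 2018 batch (left) and of TPM in the 2022 batch (right), with 1 point per mouse. C3, C4b and C3ar1 relative to C1qa stand higher in every TBI mouse than in every sham mouse, and the 2022 groups overlap in these ratios.

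The other genes of the system were counted from a list of 49, of which 47 were listed in the 2018 table and 32 were tested. After TBI 15 rose and 4 fell, against 16.8% higher and 11.2% lower over all genes tested, and the median log2 fold change was 0.42. Fcna, Cfi, Hc and Itgax, low in sham, passed edgeR's filter only with the help of their TBI counts, which favoured a rise. With at least 10 counts required in every library, 27 genes were tested, of which 11 rose and 4 fell. In the classical and lectin route 3 of 8 tested genes rose. C1s1, a C1 protease, had a log2 fold change of 2.36 (SE 0.311, adjusted p = 0.000748, edgeR), and C1ra, its activator, of 1.77 (SE 0.168, adjusted p = 0.00012). Fcna, a lectin that starts the cascade from sugars, had 2, 5 and 0 counts in sham and 51, 18 and 31 in TBI mice, a log2 fold change of 3.74 (SE 0.792, adjusted p = 0.00829) that became 4.84 without sham 2 and 3.15 without sham 3. Masp1 (0.18) and Colec11 (0.05), the lectin route genes of highest CPM among those that missed the threshold, had adjusted p-values of 0.311 and 0.923.

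In the alternative route Cfp, properdin, which stabilises the C3 enzyme, was the 1 gene tested and rose (log2 fold change 1.17, SE 0.218, adjusted p = 0.00446, edgeR), a call lost with the two-sample test on FPKM (adjusted p = 0.0819). In the terminal route, which forms the membrane pore, 1 of 3 tested genes rose. Hc, which encodes C5, had 8, 14 and 8 counts in sham and 21, 58 and 43 in TBI mice (log2 fold change 2.0, SE 0.506, adjusted p = 0.0184). At these low counts the Hc call was lost without sham 1 (adjusted p = 0.0709), sham 3 (0.0733), TBI 2 (0.0653) or TBI 3 (0.0513), and with limma on log2(FPKM + 1) without a filter (0.116). C7 (log2 fold change -1.23, adjusted p = 0.0809) passed with DESeq2 (0.0478) and without sham 2 (0.0497), and C8g was at 0.07 (adjusted p = 0.895).

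Of 8 soluble regulators listed 5 were tested and rose, Cfi among them with few counts in sham mice. Clu, clusterin, an inhibitor of pore assembly, was abundant in all mice, at 249, 274 and 213 FPKM in sham and 494, 503 and 405 FPKM in TBI mice (log2 fold change 0.88, SE 0.117, adjusted p = 0.000792, edgeR). Vtn, vitronectin, had a log2 fold change of 0.74 (SE 0.107, adjusted p = 0.00124). Cfi and Cpn1 were low. Cfi, the protease that inactivates C3b, had 1, 2 and 9 counts in sham and 26, 27 and 22 in TBI mice (log2 fold change 2.59, SE 0.661, adjusted p = 0.0188). Its call was lost without sham 1 (0.0638) or sham 2 (0.0722), and the log2 fold change was 3.89 without sham 3. Cpn1, a chain of the carboxypeptidase that trims C3a and C5a, had 10, 12 and 12 counts in sham and 28, 41 and 36 in TBI mice (log2 fold change 1.60, SE 0.384, adjusted p = 0.0145), a call lost without sham 1 (0.0585), sham 3 (0.0542) or TBI 2 (0.052).

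Of 9 membrane regulators tested 4 fell and 1 rose, where 11.2% of all genes tested fell. No other class of this list held a gene that fell. Csmd1, a brain membrane protein that inhibits the classical route, stood at 81.3, 86.9 and 70.1 CPM in sham and 49.9, 46.0 and 41.8 CPM in TBI mice (log2 fold change -0.79, SE 0.102, adjusted p = 0.000651, edgeR). Its relatives Csmd2 (-0.55, adjusted p = 0.00154) and Csmd3 (-0.51, adjusted p = 0.0389) and the regulator Susd4 (-0.34, adjusted p = 0.0152) also fell, and neuronal markers were lower in the same mice, with 3 of 6 falling. The part of neuronal content in these falls was not tested. The Csmd3 call was lost under 10 of its 19 alternatives, among them without sham 1 (0.133), sham 2 (0.0859), TBI 1 (0.106) or TBI 3 (0.11), and the Susd4 call with the two-sample test on FPKM (0.0592). Cr1l, which limits C3 deposition on mouse cells, rose (0.53, SE 0.114, adjusted p = 0.00856). Cd59a (0.09, adjusted p = 0.92), which blocks the pore, and Cd55 (0.14, adjusted p = 0.599), which dissociates the C3 enzymes, missed the threshold.

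Of the other receptors 4 of 6 tested rose. Itgam, Itgax and Itgb2 encode the chains of complement receptors 3 and 4, which take up targets coated with C3 fragments. Itgb2 had a log2 fold change of 3.27 (SE 0.229, adjusted p = 2.51e-05, edgeR) and Itgam of 2.45 (SE 0.219, adjusted p = 8.45e-05). Itgax stood at 0.178, 0.259 and 0.463 CPM in sham and 4.37, 9.22 and 11.9 CPM in TBI mice (log2 fold change 4.81, SE 0.469, adjusted p = 0.000139), a call lost with the two-sample test on FPKM (0.0795). C5ar2, the second C5a receptor, had a log2 fold change of 2.06 (SE 0.313, adjusted p = 0.00161). C1qbp (-0.02, adjusted p = 0.886), a largely mitochondrial protein that binds C1q, and Cr2 (-0.05, adjusted p = 0.95), a receptor of B cells, missed the threshold.

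**Figure D4:**
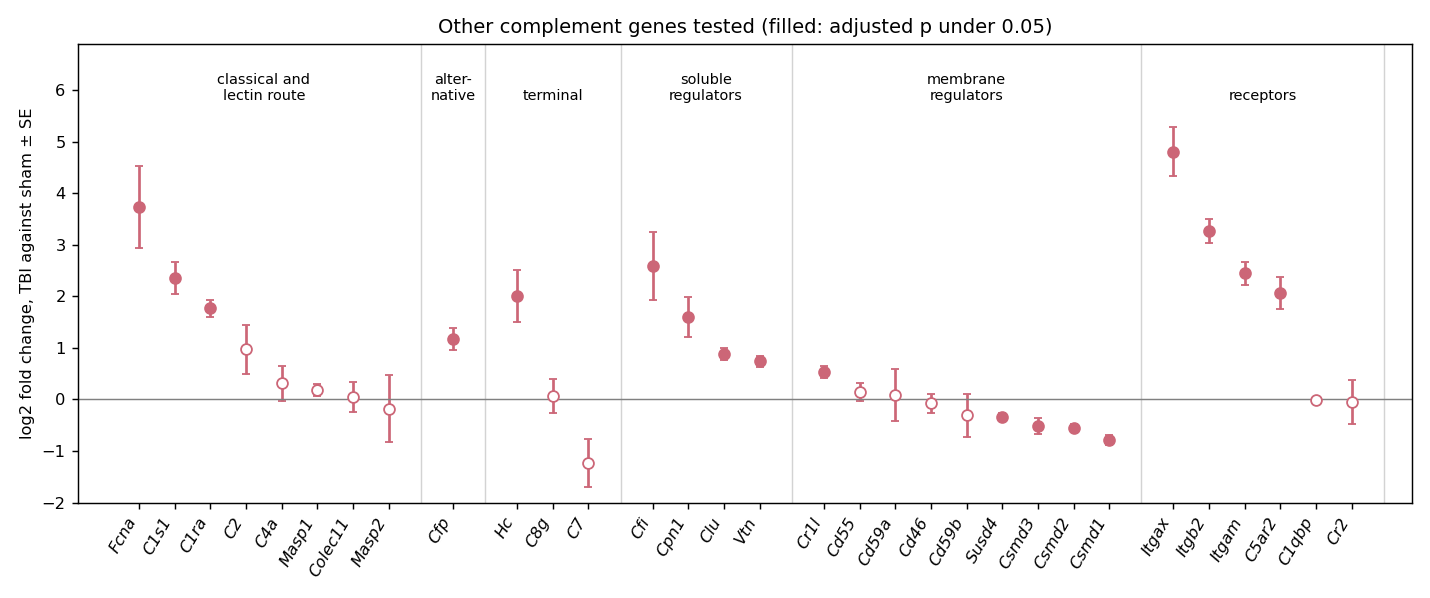
Log2 fold change of TBI against sham with its SE (edgeR) for tested genes of the list of other complement genes, grouped by role and leaving out 1 soluble regulator, with filled points for an adjusted p under 0.05. Filled points stand above 0 in all soluble regulators shown and below 0 in 4 membrane regulators.

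The comparison of zileuton with no zileuton, all mice injured, asked how 5-lipoxygenase inhibition bore on the injured brain. None of the 9 complement genes passed edgeR's test (0 of 9 at an adjusted p under 0.05, 0 at an unadjusted p under 0.05, and 0 by DESeq2). Over all 17363 genes tested 0% passed the adjusted threshold and 6.83% the unadjusted one, and the smallest adjusted p was 0.185, while DESeq2 called 28 genes. The groups overlapped in all 9 genes, where 13.6% of all genes tested did not overlap. Estimates were lower with zileuton for 7 genes and higher for 2, with a median log2 fold change of -0.21, and 49.3% of all genes were lower. A p that misses the threshold does not show that the groups were alike, and the intervals give the differences that these mice leave possible.

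For the C1q chains those intervals ran from a fall of under 1 on the log2 scale to a small rise. C1qa stood at 301, 438 and 550 CPM in mice A, B and C without zileuton and at 466, 322 and 293 CPM in mice A, B and C with it (429 ± 125 and 360 ± 92.8, SD, n = 3 each). The log2 fold change was -0.25 (SE 0.238, 95% interval -0.80 to 0.29, adjusted p = 0.813, edgeR). C1qb stood at 289, 404 and 483 CPM without and 441, 298 and 283 CPM with zileuton (-0.20, interval -0.71 to 0.30, adjusted p = 0.835, edgeR). C1qc, at 287, 416 and 473 against 437, 306 and 222 CPM, gave -0.28 (interval -0.87 to 0.30, adjusted p = 0.803, edgeR). In all 3 chains mouse A was lowest without zileuton and highest with it.

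C4b, at 213, 254 and 335 CPM without and 361, 229 and 245 CPM with zileuton, had a log2 fold change of 0.06 (SE 0.209, interval -0.42 to 0.54, adjusted p = 0.954, edgeR). It changed sign to -0.17 without zileuton mouse A and to -0.08 without mouse A of the other group.

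C3 again varied most between mice of a group. It had 534, 1691 and 1912 counts without zileuton and 3086, 952 and 950 with it, which is 18.3, 48.4 and 68.2 CPM against 101, 29.9 and 33.1 CPM. The highest and the lowest mouse of the 6 were thus both letter A, in opposite groups, and the spread within a group was 3.72-fold without and 3.39-fold with zileuton. The log2 fold change was 0.29 (SE 0.556, interval -0.99 to 1.57, adjusted p = 0.914, edgeR). It became -0.51 without zileuton mouse A and -0.09 without mouse A of the other group, and limma on log2(TPM + 1) gave -0.05, so no direction can be given. Choroid plexus genes summed to 10.9, 476 and 1050 CPM without and 1470, 1280 and 14.8 CPM with zileuton in the same mice, and fibroblast and meninges genes to 135, 127 and 194 against 183, 106 and 75.5 CPM. Their part in the C3 levels was not tested.

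Cfb had 93, 163 and 116 counts without and 141, 104 and 56 with zileuton, 3.19, 4.66 and 4.14 CPM against 4.64, 3.27 and 1.95 CPM. This gave a log2 fold change of -0.28 (SE 0.31, interval -0.99 to 0.43, adjusted p = 0.837, edgeR), and limma on log2(TPM + 1) gave 0.05. In this table the overlapping Gm20547 was listed with 0 to 3 counts. Serping1, at 22.5, 22.9 and 34.2 against 36.4, 20.1 and 19.4 CPM, had a log2 fold change of -0.07 (SE 0.266, interval -0.68 to 0.54, adjusted p = 0.957, edgeR). It was 0.16 without mouse C of the group without zileuton, and 0.07 and 0.09 without zileuton mice B and C.

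The receptors had estimates below 0. C3ar1 stood at 35.7, 52.5 and 58.6 CPM without and 57.5, 37.1 and 32.5 CPM with zileuton (log2 fold change -0.21, SE 0.24, interval -0.76 to 0.34, adjusted p = 0.846, edgeR). C5ar1 had the estimate farthest from 0 of the 9 genes. It had 363, 429 and 275 counts without and 376, 237 and 164 with zileuton, 12.4, 12.3 and 9.81 against 12.4, 7.45 and 5.72 CPM, so that zileuton B and C lay below all mice without it and zileuton A did not. The log2 fold change was -0.43 (SE 0.263, interval -1.04 to 0.17, adjusted p = 0.729, edgeR), and between -0.80 and -0.21 when single mice were left out.

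**Figure D5:**
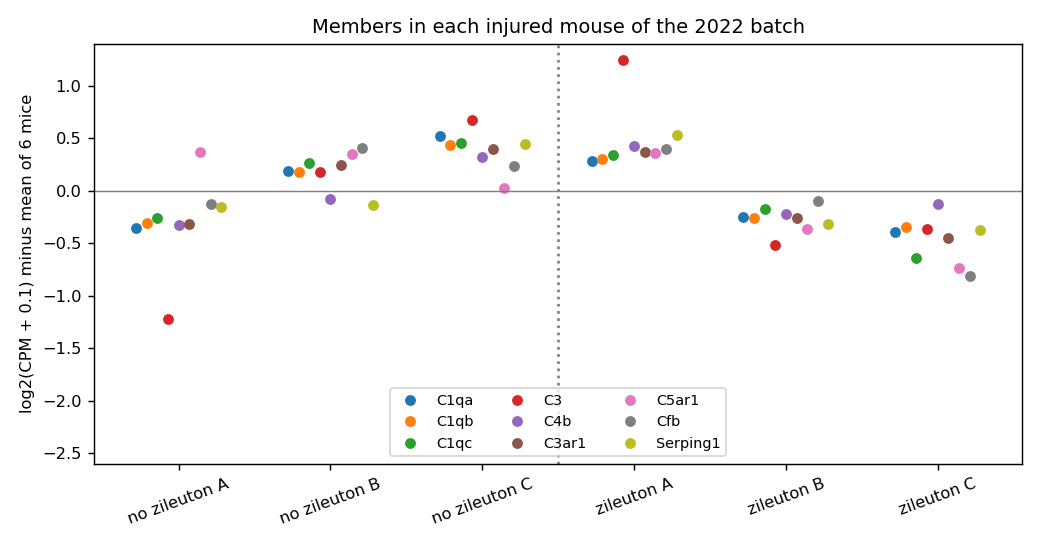
Level of each complement gene in each injured mouse of the 2022 batch, as log2(CPM + 0.1) minus the mean of the 6 mice. Zileuton mouse A is highest of its group for all 9 genes, and mouse A of the group without zileuton is lowest of its group for 8, with C3 farthest from 0 in both.

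Within the 2022 groups most of the complement genes put the mice in a like order, as the plot of each injured mouse shows. Zileuton mouse A was the highest of its group for 9 of 9 genes and mouse C the lowest for 7. Without zileuton, mouse A was the lowest for 8 and mouse C the highest for 7, while C5ar1 had mouse A highest and mouse C lowest. Homeostatic microglia genes summed to 800, 1070 and 1160 CPM without and 1110, 900 and 812 CPM with zileuton. Monocyte and macrophage genes, mostly Lyz2 (means 780 and 556 CPM), summed to 429, 751 and 1300 against 900, 435 and 449 CPM. In both sums mouse A was lowest without zileuton and highest with it. Astrocyte genes, at 6230, 7490 and 7340 CPM without and 8620, 7060 and 7370 CPM with zileuton, placed mouse A likewise. So did choroid plexus and B cell genes. Neutrophil genes, at 3.67, 5.26 and 2.64 CPM without and 6.41, 1.10 and 1.22 CPM with zileuton, did not. Neuronal genes, at 5000, 5190 and 4340 against 4420, 4840 and 5060 CPM, did not either, nor did oligodendrocyte, endothelial, fibroblast and T cell sums. The part of cell content in the spread between mice was not tested.

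In TPM, the unit per length of this batch, the order of the 9 genes was the same with and without zileuton. Without it mean TPM was 892 for C1qa, 767 for C1qb, 693 for C1qc, 129 for C4b, 34.4 for Serping1, 21.2 for C3, 20.2 for C3ar1, 11.2 for C5ar1 and 3.69 for Cfb. With zileuton it ran from 793 for C1qa to 3.92 for Cfb. In both groups the C1q chains overlapped their neighbours, as did Serping1, C3 and C3ar1. The ratios to C1qa overlapped between the groups, with exact two-sided permutation p = 0.7 for C3, 0.3 for C4b and 0.9 for C3ar1, and p = 1 for C5ar1 to C3ar1 (n = 3 each, smallest possible p 0.1).

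Of the 49 other complement genes 27 were tested with zileuton, 0 passed the adjusted threshold (edgeR, and 0 by DESeq2), and 1 passed the unadjusted one. That gene, Cpn1, had 8, 8 and 13 counts without and 42, 31 and 16 with zileuton (log2 fold change 1.60, SE 0.459, adjusted p = 0.713, edgeR), higher in 3 of 3 mice. The estimates were higher for 11 and lower for 16, with a median of -0.04. For the genes that rose after TBI, log2 fold changes with zileuton were -0.08 for Itgax, 0.05 for Fcna, -0.15 for Itgb2, 0.01 for Itgam, -0.01 for C1s1, -0.37 for C5ar2, -0.23 for C1ra, -0.29 for Cfp, 0.13 for Clu and -0.14 for Vtn, and 0.28 for Csmd1, which had fallen. All of these missed the threshold, and Cfi and Hc had too few counts to be tested. C5ar2, at 2.74, 2.37 and 3.39 CPM without and 2.14, 2.04 and 2.37 CPM with zileuton, was lower in every zileuton mouse, though the closest mice are equal at the digits printed (adjusted p = 0.724, edgeR). Csmd2 was higher in every zileuton mouse, at 58.4, 55.2 and 61.4 CPM against 52.5, 53.9 and 36.3 CPM (log2 fold change 0.29, adjusted p = 0.713, edgeR). With Cpn1 these were 3 of 27 genes whose groups did not overlap, where 13.6% of all genes tested did not.

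The genes most like the leading members were sought over all 12 libraries, each batch centred on its own mean, among 16516 genes tested in both comparisons. Over these libraries the sham and TBI groups stand far apart, so that any gene with a large injury difference correlates, and the values are a description only. Nearest to C1qa by Pearson's r of log2 CPM were C1qb (0.999), Lpcat2 (0.998), Cd84 (0.997), Ncf1 (0.997) and Olfml3 (0.997). Nearest to C3 were Cybrd1 (0.994), Trf (0.991), Aldh1l2 (0.99), Kcne1l (0.99) and A2m (0.989). Nearest to C4b were Abca1 (0.997), Bmp2k (0.996), Apod (0.991), Apoc4 (0.991) and Csf1 (0.991). Among the 6 mice of 2022 alone, r was 0.94 to 0.996 for the neighbours of C1qa, 0.931 to 0.957 for those of C3 and 0.819 to 0.95 for those of C4b. These 6 mice were part of the choice of neighbours, so their values are not a separate check. The 3 lists share no gene.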

How the data were processed

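RNA-seq libraries of 12 mice were used, 3 per group. The authors deposited raw counts per gene and FPKM for the 2018 batch, and estimated counts and TPM for the 2022 batch, of which 13.7% of values were not whole and were rounded for the count tests. The submitters' processing notes name HISAT2, featureCounts, Subread, DESeq2 and GRCm39, with no roles, and strand use in counting is not given in the sources used here. Among the 2018 libraries 62.3% to 64.4% of counts from 1 to 20 were even, so both reads of a pair may have been counted. That could halve the number of molecules behind a count.

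Each batch was fitted alone in R 4.3.3 with edgeR 4.0.16 (TMM, filterByExpr, quasi-likelihood test, Benjamini-Hochberg over 19536 and 17363 genes, threshold 0.05). Alternatives were DESeq2 1.42.0 and its size factors, library totals, other filters, a robust fit, limma 3.58.1 on log2(value + 1) and log2(value + 0.1), a two-sided equal-variance two-sample test on FPKM or TPM (the study names a two-sided test of this kind, and the input, the adjustment and a mean of at least 0.5 were chosen here), a length trend, halved counts, a replicate block, and leaving out each mouse. The plan assumed raw counts in both batches. Scripts were tested on simulated data. Sequences are from RefSeq (GRCm38.p6) and overlaps from GENCODE M21 (GRCm38). Figures used matplotlib 3.10.9. Named genes were the 9 members, the 15 other complement genes with the largest called change, up to 2 uncalled genes of highest CPM per class, the genes called with smaller changes, and 5 neighbours each of C1qa, C3 and C4b. Of the called genes, 1 soluble regulator is counted but not reported here. Members and lists were chosen with earlier results of these data known. With 3 mice per group, p-values measure the spread between these mice.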

Additional observations from a re-analysis of the deposited data

How the results depend on the processing

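After TBI the 8 called complement genes kept their direction under every alternative run, and their calls too except that of C3, lost with the two-sample test on FPKM (7 called). With any mouse left out 8 were called. The count of other complement genes called after TBI was 19, and it was 15 to 18 with single mice left out. It came from 32 genes tested. With a mean FPKM of at least 0.5 required, 22 were tested, of which the two-sample test called 10 and limma 13, so filter and test changed together. With zileuton the counts were 0 under every alternative. Replicate numbers did not pair the mice. After each gene's group mean was subtracted, the deviations of same-numbered sham and TBI mice correlated at -0.0228, -0.0944 and -0.0326. With the replicate block 8 members and 19 others were called. By the column numbers of 2022 the correlations of such deviations were -0.28, 0.0628 and -0.282, and the block left both counts at 0.

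Some estimates near 0 changed sign, all of them of genes that missed the threshold. After TBI, removing the length trend gave -0.05 for Colec11, -0.02 for C8g and -0.01 for Cd59a. C1qbp was 0.03 with library totals, with each limma fit and with the two-sample test, and Cr2 was 0.00 with limma without a filter. With single mice left out, Colec11 ran from -0.19 to 0.17, C8g from -0.09 to 0.33, Cd59a from -0.37 to 0.74, Cd55 from 0.00 to 0.25 and Cr2 from -0.43 to 0.16. With zileuton, the limma fits gave -0.05 for C3, 0.05 or 0.06 for Cfb and 0.10 or 0.15 for Itgax. The two-sample test gave 0.00 for C3, 0.09 for Cfb, 0.01 for Serping1 and 0.07 for Itgax. The length trend gave 0.00 for Serping1 and -0.05 for Itgam, and the replicate block 0.01 for Itgax and -0.02 for Itgam. With single mice left out, C3 ran from -0.51 to 0.72, C4b from -0.17 to 0.25, Serping1 from -0.42 to 0.16, Itgax from -0.43 to 0.19, Fcna from -0.14 to 0.30, Itgb2 from -0.36 to 0.02, Itgam from -0.21 to 0.18, C1s1 from -0.52 to 0.20, C1ra from -0.72 to 0.03 and Clu from -0.01 to 0.24. The cause of these moves was not tested. Log2 fold changes correlated with gene length across genes in the 2022 batch (Spearman's rho 0.395, with genes as points, no replicates) and less in the 2018 batch (-0.123). Counts were too low for edgeR's filter for Cfb in the 2018 batch and for Cfi and Hc in the 2022 batch.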
